A study of Mus musculus with 20 samples.

Results

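The genes described here are 10 transcription factors of photoreceptor fate: Nrl, Nr2e3, Crx, Otx2, Thrb, Rxrg, Esrrb, Neurod1, Sall3 and Rorb. They were chosen by name, and the array's annotation assigned 82 of its 194293 probe sets to them. A probe set is a small group of probes that mostly reads 1 exon, and a gene level is the summary of a gene's probe sets, on the log2 scale of array intensity. All 10 were measured among 15781 named genes. The 25% of genes with the lowest mean level, below 5.609, were left out of the tests, which kept 11836 genes and 9 of the 10 members. Nr2e3 was below that limit, so its values are given without a call.

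The series followed retinas of C57Bl/6J mice of the genotype Nrl-/- at 1, 2, 4, 6 and 10 months of age, with 4 arrays per age and 20 in all. Each array held RNA from both retinas of 1 mouse, so the replicates were separate animals. Every group carried the same deletion. No array of a retina with Nrl was analysed here, so each comparison is between ages within the knockout. The study's title calls this retina cone-only and names a rapid but transient degeneration and remodeling, and the ages span that course.

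Nrl is the leucine zipper factor that sets rod fate. Precursors that lack it become photoreceptors that resemble short-wavelength cones. Nrl switches on Nr2e3, an orphan nuclear receptor that represses cone genes in rods. The homeodomain factors Otx2 and Crx stand above both fates, Otx2 in committing cells to the photoreceptor lineage and Crx in driving most photoreceptor genes. Thrb, the thyroid hormone receptor beta gene, and Rxrg, a retinoid X receptor gene, encode partners that set the opsin of cones. Rorb promotes rod fate upstream of Nrl, Esrrb is an estrogen-related orphan receptor known for the survival of rods, Neurod1 is a helix-loop-helix factor needed to maintain photoreceptors, and Sall3 is a zinc finger factor of cones.

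Promoters of 5 genes are shown because 4 of those genes had the largest called changes of the 10, and the fifth, Crx, is the factor for which the TAATCC letters are best known. Each window holds the 250 bases before a start site annotated by RefSeq on GRCm38.p6, written 5′ to 3′ on the gene's own strand. Capitals mark matches, on either strand, to TAATCC (the core site of CRX and OTX2), TGCTGA (an NRL half-site), AGGTCA (a nuclear receptor half-site), AAGGTCA (its extended form, which contains AGGTCA) or CAGATG (an E-box of NEUROD1).
Esrrb, start site 1, chr12:86360867-86361116, plus strand: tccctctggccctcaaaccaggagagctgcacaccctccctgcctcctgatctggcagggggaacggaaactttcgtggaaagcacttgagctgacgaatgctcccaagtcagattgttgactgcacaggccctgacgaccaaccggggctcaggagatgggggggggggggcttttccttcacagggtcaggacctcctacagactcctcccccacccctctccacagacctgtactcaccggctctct
Esrrb, start site 2, chr12:86421394-86421643, plus strand: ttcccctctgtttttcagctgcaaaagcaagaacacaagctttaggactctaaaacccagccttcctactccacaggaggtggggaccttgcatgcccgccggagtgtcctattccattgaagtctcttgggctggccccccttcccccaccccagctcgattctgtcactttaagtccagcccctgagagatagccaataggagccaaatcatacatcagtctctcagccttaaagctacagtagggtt
Thrb, start site 1, chr14:17660710-17660959, plus strand: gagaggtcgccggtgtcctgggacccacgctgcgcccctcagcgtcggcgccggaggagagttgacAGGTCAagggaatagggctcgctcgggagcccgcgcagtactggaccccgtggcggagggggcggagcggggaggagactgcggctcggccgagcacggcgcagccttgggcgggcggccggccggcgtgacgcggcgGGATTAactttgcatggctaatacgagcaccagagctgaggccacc
Rxrg, start site 2, chr1:167618015-167618264, plus strand: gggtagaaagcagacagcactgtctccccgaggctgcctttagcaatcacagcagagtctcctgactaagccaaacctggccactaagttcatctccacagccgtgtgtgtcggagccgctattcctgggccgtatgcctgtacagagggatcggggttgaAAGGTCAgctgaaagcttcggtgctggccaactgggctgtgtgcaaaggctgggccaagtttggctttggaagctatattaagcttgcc
Neurod1, start site 1, chr2:79456637-79456886, minus strand: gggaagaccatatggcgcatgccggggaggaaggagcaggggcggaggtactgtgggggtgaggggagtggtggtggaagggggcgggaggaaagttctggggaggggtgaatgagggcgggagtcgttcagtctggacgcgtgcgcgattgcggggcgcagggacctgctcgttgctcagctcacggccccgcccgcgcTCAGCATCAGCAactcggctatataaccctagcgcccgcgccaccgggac
Crx, start site 1, chr7:15879956-15880205, minus strand: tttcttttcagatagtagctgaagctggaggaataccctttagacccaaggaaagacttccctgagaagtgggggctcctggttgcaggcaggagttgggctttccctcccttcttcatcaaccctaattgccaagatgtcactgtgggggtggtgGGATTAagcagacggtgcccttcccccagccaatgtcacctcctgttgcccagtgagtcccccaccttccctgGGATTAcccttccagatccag

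Windows were found for 9 of the 10 genes, 16 windows in all, and that of Sall3 was not used here. TAATCC was in 3 of the 16 windows, those of Crx (2 matches), Otx2 (its start site 3) and Thrb (start site 1), against 6.25% of 32851 windows over all genes. TGCTGA was in 3 windows, those of Neurod1 (2 matches side by side), Otx2 and Rorb, against 16.1%. AGGTCA was in the windows of Thrb and Rxrg shown above, against 14%, and its extended form AAGGTCA only in that of Rxrg among the 16, against 4.08%. CAGATG was in a window of Nrl and of Otx2, against 14.4%. Neither Esrrb window holds any of these letters, and neither do start site 2 of Thrb and start site 1 of Rxrg, whose windows are not printed. A match is a description of letters in the window, and binding was not measured.

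The arrays were similar in quality, with a mean correlation with the other arrays of at least 0.974. Marker lists were read beside the tissue label. All 17 cone genes listed were above the dim limit, and their mean level per array lay between 11.09 and 11.58. All 14 bipolar cell genes, all 12 Muller glia genes and 15 of 16 measured rod genes also passed that limit. Passing it therefore does not check the label. The mean level of the rod genes per array lay between 9.38 and 9.68. The labels give no sex. The mean level of Y-linked genes was 7.93 to 8.28 at 1 month, 4.00 to 4.28 at 2 months, 7.33 to 7.63 at 4 months and 7.65 to 7.83 at 6 months, and at 10 months it was 7.40, 4.13, 4.42 and 7.72 in replicates 1 to 4. Y-linked level and age therefore cannot be told apart at 2 months, and the gene-level results of the members at 10 months were computed also from replicates 1 and 4 alone and are given where that changes a call. The probe sets and the other genes were not tested that way. The retinas were measured whole, so fewer cells of a type and less RNA per cell cannot be told apart.

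Esrrb, the orphan receptor, rose most of the 10 genes. At 1 month its gene level was 7.62, 7.44, 7.35 and 7.47 in replicates 1 to 4. At 2 months it was 8.51, 8.51, 8.51 and 8.42. At 4 months it was 8.71, 8.66, 8.62 and 8.61. All 4 arrays of each later age were above all 4 arrays of 1 month, and the step fell between the first 2 ages. Levels were 8.80, 8.77, 8.58 and 8.78 at 6 months and 8.91, 9.10, 8.63 and 8.95 at 10 months. The rise by 2 months was 1.02 ± 0.080 on the log2 scale (SE, n = 4 against 4), or 2.03-fold, with an adjusted p of 7.69e-07 (limma, Benjamini-Hochberg over 11836 genes). It ranked 16 of 11836 genes by size. By 4 months the difference from 1 month was 1.18 ± 0.080, or 2.27-fold (95% interval 1.01 to 1.35, adjusted p 6.19e-08 by limma), and by 10 months it was 1.43 ± 0.080, or 2.69-fold. The order of the means followed age, yet no neighbouring pair after 2 months differed by the test: 4 against 2 months gave 0.16, 6 against 4 months 0.08 and 10 against 6 months 0.16, with adjusted p of 0.63, 0.895 and 0.166 by limma. Without replicate 3 of 10 months, the lowest array of that age, the last of these steps was called (adjusted p 0.0173 by limma, from a change of 0.25).

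Markers of other cells were counted beside this rise at 2 and at 4 against 1 month. At 2 against 1 month 3.3% of all genes were called higher and 5.22% lower. Muller glia genes were called higher there for 4 of 12, and microglia genes for 7 of 11. Bipolar cell genes were higher for 3 and lower for 1 of 14, and endothelium genes higher for 1 and lower for 2 of 8. At 4 against 1 month 6.9% of all genes were called higher and 8.26% lower. Muller glia genes were called higher there for 9 of 12 and lower for 0, and microglia genes higher for 4 of 11. Bipolar cell genes were higher for 6 and lower for 1 of 14, and endothelium genes higher for 1 and lower for 5 of 8. The mean level of the microglia list was 6.97 to 7.07 at 1 month and 7.31 to 7.51 at 2 months, while that of the lens list fell from 6.74 to 7.30 at 1 month to 5.94 to 6.30 at 2 months. Their part in the rise of Esrrb was not tested.

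Thrb, the receptor for thyroid hormone in cones, also rose early, and it later fell back in part. Its level was 9.20, 9.19, 9.03 and 9.14 at 1 month, 9.58, 9.60, 9.50 and 9.70 at 2 months, and 9.56, 9.46, 9.58 and 9.47 at 4 months. It was 9.53, 9.69, 9.71 and 9.63 at 6 months and 9.46, 9.55, 9.33 and 9.38 at 10 months. Every array after 1 month was above every array of 1 month. The difference from 1 month was 0.46 ± 0.061 at 2 months (SE, n = 4 against 4, adjusted p 0.000198 by limma), 0.38 ± 0.061 at 4 months (0.000402), 0.50 ± 0.061 at 6 months (2.72e-05) and 0.29 ± 0.061 at 10 months (0.000921). Between 6 and 10 months it fell by 0.21 on the log2 scale (SE 0.061, adjusted p 0.0194 by limma), with groups that overlapped, and this call was lost in 8 of 21 alternatives (adjusted p from 0.00978 to 0.274), among them leaving out replicate 2 or 3 of 6 months or replicate 3 or 4 of 10 months. The rise at 2 against 1 month was not called once the Y-linked level entered the fit (0.41, adjusted p 0.107 by limma). At 4 and at 6 against 1 month Thrb kept its call under each of the 20 alternatives run. The part of sex in the rise at 2 months was not tested, since all arrays of 2 months had low Y-linked levels.

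Rxrg, the retinoid X receptor that pairs with it, fell only at the last step, with no comparison among the earlier ages called. Levels were 9.17, 9.15, 9.08 and 9.14 at 1 month and 9.19, 9.10, 9.29 and 9.17 at 2 months. They were 9.13, 9.01, 9.01 and 8.98 at 4 months and 9.25, 9.14, 9.13 and 9.22 at 6 months. At 10 months they were 8.52, 8.69, 8.67 and 8.73, below every array of every earlier age. The change from 6 to 10 months was -0.53 ± 0.055 (SE, n = 4 against 4, 95% interval -0.65 to -0.42, adjusted p 2.78e-06 by limma), which put the 6-month level at 1.45 times the 10-month level. It was called under each of the 21 alternatives run, between -0.58 and -0.49, including replicates 1 and 4 of 10 months alone (-0.56).

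Neurod1, which maintains photoreceptors, was lower than at 1 month from 4 months on, and lowest at 10 months. Its level was 12.26, 12.22, 12.12 and 12.20 at 1 month, 12.03, 11.92, 12.15 and 12.01 at 2 months, and 11.93, 11.86, 11.94 and 12.01 at 4 months. It was 11.87, 11.79, 11.91 and 11.91 at 6 months and 11.36, 11.68, 11.62 and 11.80 at 10 months. From 4 months on, all arrays were below all arrays of 1 month, and the arrays of 10 months spread widest. The change against 1 month was -0.17 ± 0.074 at 2 months (SE, n = 4 against 4, adjusted p 0.172 by limma, not called), -0.27 ± 0.074 at 4 months (0.0196), -0.33 ± 0.074 at 6 months (0.00488) and -0.58 ± 0.074 at 10 months (5.8e-06). The call at 4 months was lost in 3 of 20 alternatives: the brightest probe set (adjusted p 0.077 by limma), without replicate 1 of 1 month (0.0589) and without replicate 2 of 4 months (0.0633). The steps from 2 to 4 and from 4 to 6 months were not called (adjusted p 0.831 and 0.903 by limma). From 6 to 10 months it was -0.25 ± 0.074 (adjusted p 0.0207 by limma), and replicate 4 of 10 months overlapped the 6-month arrays. That call was lost in 7 of 21 alternatives (adjusted p from 0.00511 to 0.191), among them leaving out replicate 3 or 4 of 6 months or replicate 1 of 10 months.

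Otx2, which commits cells to the photoreceptor lineage, fell by less. Its levels were 11.25, 11.31, 11.24 and 11.24 at 1 month, 11.28, 11.15, 11.32 and 11.28 at 2 months, and 11.05, 11.14, 11.10 and 11.16 at 4 months. They were 11.15, 11.16, 11.15 and 11.18 at 6 months and 11.01, 11.09, 10.95 and 10.99 at 10 months. The arrays of 10 months were below all arrays of 1, 2 and 6 months, and overlapped those of 4 months. The change against 1 month was -0.15 ± 0.046 at 4 months (SE, n = 4 against 4, adjusted p 0.037 by limma) and -0.25 ± 0.046 at 10 months (0.000251). From 6 to 10 months it was -0.15 ± 0.046 (adjusted p 0.0272 by limma), a call lost in 11 of 21 alternatives (adjusted p from 0.012 to 0.27), among them replicates 1 and 4 of 10 months alone (-0.16, adjusted p 0.063) and leaving out replicate 2 or 4 of 6 months or replicate 3 or 4 of 10 months. The call at 4 months was lost in 13 of 20 alternatives, with adjusted p from 0.00816 to 0.244, among them leaving out any 1 array of 1 month or replicate 1, 2 or 3 of 4 months, while the call at 10 against 1 month was lost in 1 of 21, the use of the brightest probe set alone (adjusted p 0.0525).

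Crx, which acts beside Otx2, was not called in any comparison. Its level lay between 12.04 and 12.45 over the 20 arrays, with means of 12.29 ± 0.031 at 1 month and 12.24 ± 0.15 at 10 months (SD, n = 4). The difference between those ages was -0.05, with a 95% interval of -0.18 to 0.07, so a fall of the size seen for Neurod1 lay outside that interval. The difference in change between Crx and Neurod1 was not itself tested.

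**Figure D1:**
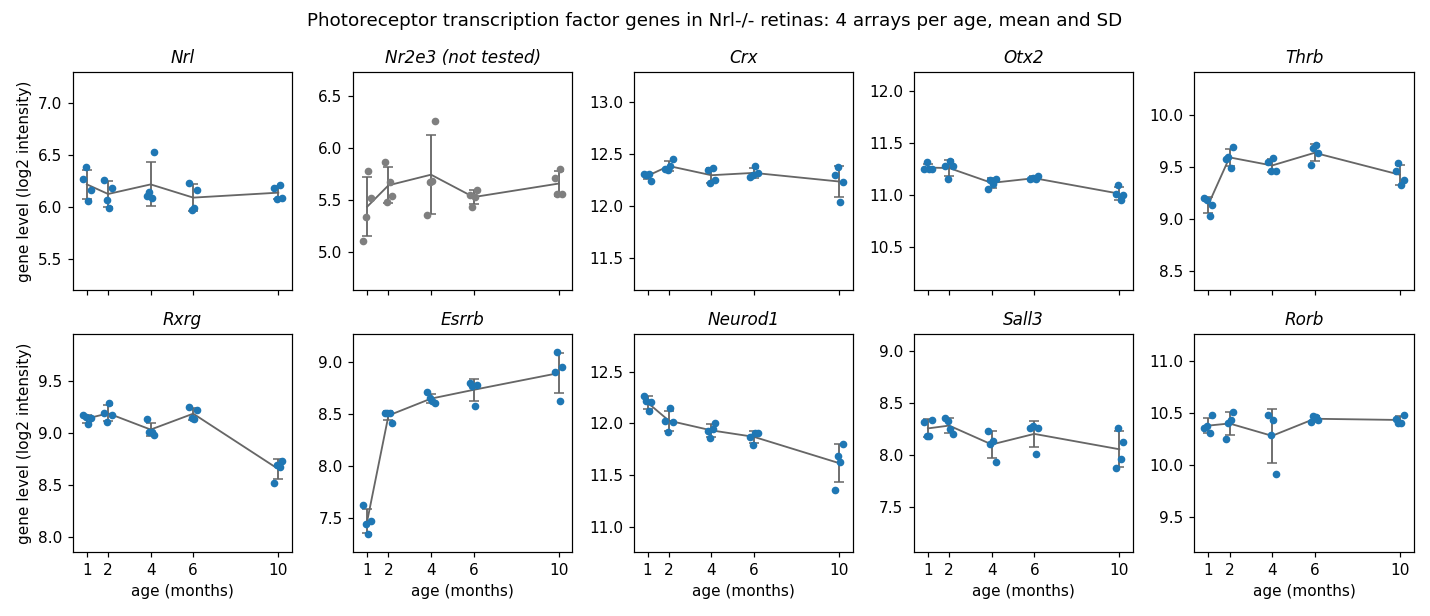
Gene level (log2 intensity) against age in months for each of the 10 genes, with every array as a point and the mean and SD of 4 arrays per age as a line with bars. All panels span the same log2 range. Esrrb steps up between 1 and 2 months, Thrb rises at the same step, Rxrg drops at 10 months, and Nr2e3, in grey, was too dim to test.

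Nrl itself, the deleted gene, was read by 6 probe sets. Its gene level lay between 5.97 and 6.53 on the 20 arrays, just above the dim limit, with means of 6.22 ± 0.14 at 1 month and 6.14 ± 0.066 at 10 months (SD, n = 4). No comparison between ages was called for it, and the 5 ages together gave an adjusted p of 0.677 (limma F test). The mean over the 20 arrays was 7.95 for probe set 4787755, 6.10 for 4890693, 2.75 for 4957237, 5.87 for 5035236, 6.16 for 5125731 and 6.41 for 5491611. Only 3 of these 6 were above the 6.148 limit used for dim probe sets. Values of different probe sets cannot be set against each other, since probes differ in how brightly they bind. The sources used here do not place these probe sets on the exons that the allele removes, so they do not check the genotype. Nr2e3, the target that Nrl switches on in rods, had levels between 5.10 and 6.26 on the 20 arrays, and its mean was 5.43 ± 0.29 at 1 month and 5.66 ± 0.12 at 10 months (SD, n = 4). Of its 8 probe sets 2 were above the limit, and neither was called over the 5 ages.

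Sall3, the zinc finger factor, lay between 7.88 and 8.36, and Rorb between 9.91 and 10.52. Neither was called at any comparison. Sall3 went from 8.26 ± 0.086 at 1 month to 8.06 ± 0.17 at 10 months (SD, n = 4), a change of -0.20 with an adjusted p of 0.064 by limma. It was called in 4 of 21 alternatives for that comparison, among them leaving out replicate 2 of 10 months and keeping only replicates 1 and 4 of that age. Rorb had means of 10.38 ± 0.074 and 10.44 ± 0.036 at those ages. The lowest of its 20 values, 9.91, came from replicate 4 of 4 months, the array on which Nrl and Nr2e3 had their highest values and which had the lowest mean correlation with the others.

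Counted together, 5 of the 9 tested members were called over the 5 ages, against 38.4% of all genes tested. At 2 against 1 month 2 of 9 were called, both higher, against 8.52% of all genes (3.3% higher and 5.22% lower). That share rests on 1008 genes, and the number was 625 without replicate 2 of 1 month and 616, 653 and 535 without replicates 2, 3 and 4 of 2 months. With the Y-linked level in the fit it was 125, and Thrb was not called there. At 4 against 1 month 4 were called, 2 higher (Esrrb, Thrb) and 2 lower (Otx2, Neurod1), against 15.2% of all genes (6.9% higher and 8.26% lower), and leaving out replicate 1 of 1 month or replicate 2 of 4 months left 2. At 6 against 1 month 3 were called, 2 higher and 1 lower (Neurod1), against 16.4% (7.89% higher and 8.52% lower). At 10 against 1 month 5 were called, 2 higher and 3 lower (Otx2, Rxrg, Neurod1), against 41.4% (20.6% higher and 20.8% lower), a share not far from the members' own. The comparisons with 1 month share its 4 arrays.

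Between the middle ages nothing in this group was called. At 4 against 2 months 0 of 9 members passed by limma, with 3 below 0.05 before adjustment and none under 0.355 after it, against 0.127% of all genes. At 6 against 4 months 0 passed, with 1 below 0.05 before adjustment and none under 0.895 after it, against 0% of all genes. At 10 against 6 months 4 of 9 were called, all lower (Otx2, Thrb, Rxrg, Neurod1), against 20.3% of all genes (8.56% higher and 11.7% lower). The median change of the 9 was -0.15, beside 0.03 over all genes tested.

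**Figure D2:**
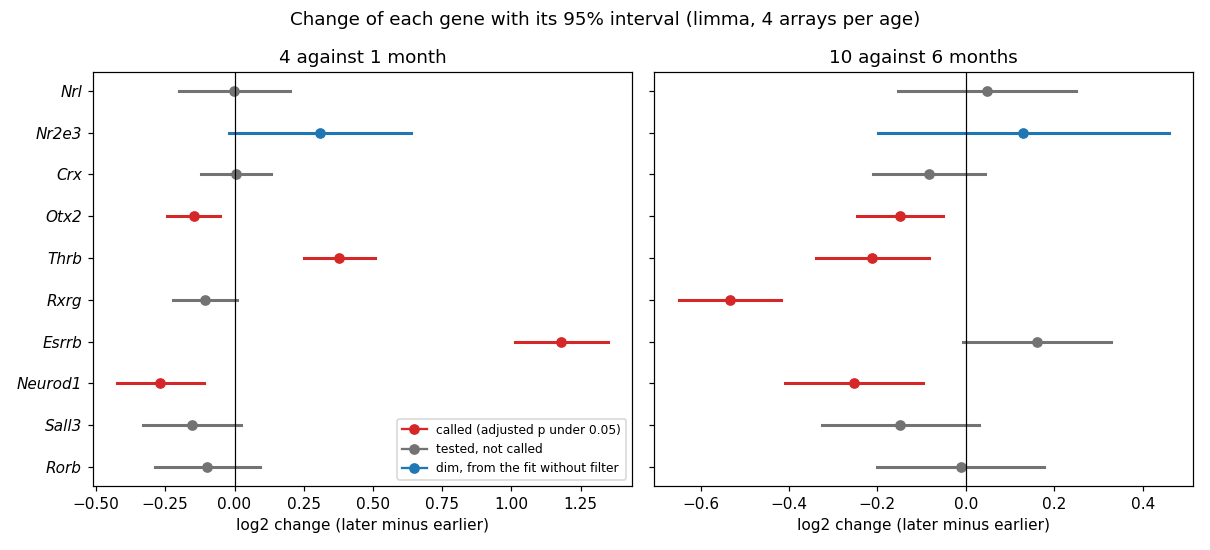
Log2 change of each gene, later minus earlier, with its 95% interval from limma, for 4 against 1 month (left) and 10 against 6 months (right), on separate scales. Esrrb and Thrb lie to the right of 0 on the left, and Rxrg lies farthest to the left of 0, at -0.53, on the right. Red marks called genes, grey those tested and not called, and blue Nr2e3, from the fit without a filter.

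Only Rxrg kept its call at 10 against 6 months when the mean level of pigment epithelium genes was added to the fit (-0.50, adjusted p 0.000132 by limma), an alternative added after the data were seen. The other 3 genes were no longer called there, with changes of -0.12 for Otx2, -0.16 for Thrb and -0.19 for Neurod1 (adjusted p 0.195, 0.184 and 0.191 by limma). Over all genes that fit called 1278 rather than 2400, so calls were lost well beyond these members. The pigment epithelium list of 9 tested genes had a mean level of 8.29, 6.69, 7.72 and 8.0 in replicates 1 to 4 of 10 months, against 6.71 to 7.38 at 6 months. In the main fit 1 of its 9 genes was called. In replicate 2, where the pigment genes stood at 6.69, Rxrg was at 8.69, Otx2 at 11.09, Thrb at 9.55 and Neurod1 at 11.68. With 1 such array, nothing is read from these values. The part of pigment epithelium in these changes was not tested beyond this fit. The count was also 1 once the Y-linked level was a covariate, where the changes were larger (-0.17 for Otx2, -0.23 for Thrb and -0.29 for Neurod1) and adjusted p lay between 0.053 and 0.0692 by limma. With the 2 ages fitted alone it was 1 with the same changes as before and adjusted p between 0.0667 and 0.0964. With the brightest probe set of each gene it was 1, with changes of -0.13, -0.17 and -0.25, and 988 genes were called over all. It was 2 without replicate 2, 3 or 4 of 6 months or replicate 4 of 10 months. Without replicate 3 of 10 months Otx2 and Thrb also lost their calls (adjusted p 0.0843 and 0.0695 by limma), while Esrrb was called higher (0.0173).

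At the level of single probe sets, 33 of the members' 70 tested probe sets were called over the 5 ages, against 15.7% of all 134622 tested. All 14 tested Esrrb probe sets were called, 10 of 12 for Rxrg, 3 of 5 for Thrb, 3 of 3 for Neurod1, and 1 each for Otx2 (of 5), Sall3 (of 8) and Rorb (of 11). None of 7 for Crx, of 3 for Nrl or of 2 for Nr2e3 was called. At 4 against 1 month 19 were called, against 4.83%: the 14 of Esrrb, with rises between 0.69 and 1.60, 3 of Thrb, and 1 lower each for Neurod1 and Sall3. At 10 against 6 months 11 were called, against 6.27%: 10 of Rxrg, between -0.96 and -0.47, and 1 of Rorb. All 12 Rxrg probe sets had changes below 0. The rise of Esrrb and the fall of Rxrg were thus read across most of each gene's probe sets. Probe sets of 1 gene share its transcripts and are not replicates.

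**Figure D3:**
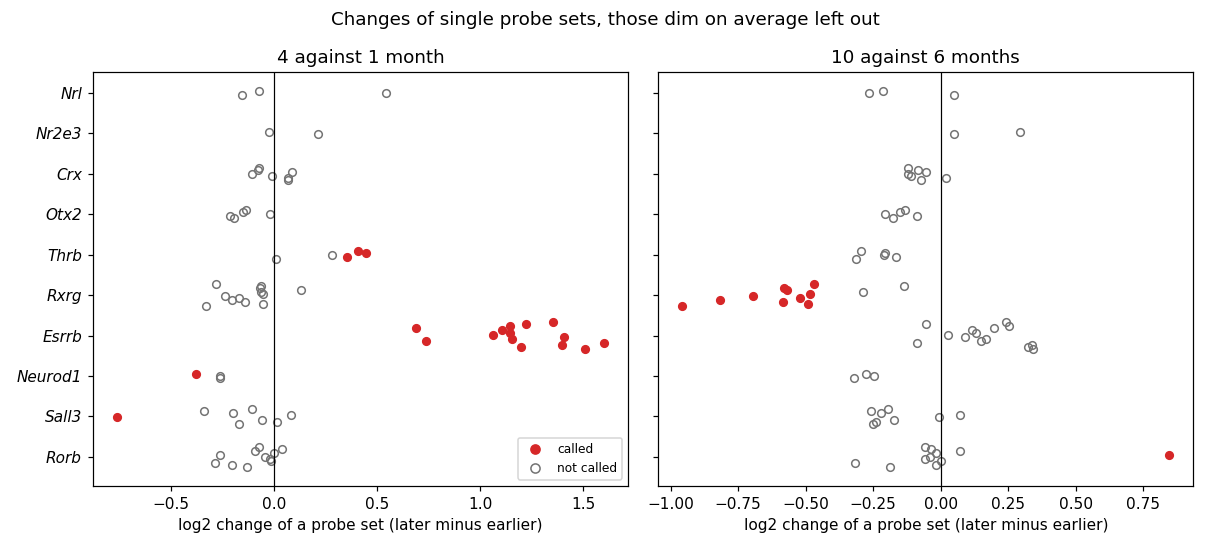
Log2 change of each tested probe set, later minus earlier, by gene, for 4 against 1 month (left) and 10 against 6 months (right), with called probe sets filled in red. The Esrrb probe sets lie between 0.69 and 1.60 on the left, and 1 Rorb probe set, at 0.85, stands away from the rest of its gene on the right.

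The Rorb probe set 5030302 rose while its gene did not. Its value was 7.56, 7.24, 7.48 and 7.40 at 6 months and 8.24, 8.41, 8.18 and 8.24 at 10 months. The 2 ages did not overlap, and its highest value at any earlier age was 8.13. The change was 0.85, with an adjusted p of 0.000489 over all probe sets (limma). Set against the mean of the gene's other tested probe sets, it shifted by 0.91 ± 0.15 (SE, n = 4 against 4, adjusted p 0.0243 by limma). A second shift was that of Rxrg probe set 5525073, which fell less than the others: it was 9.28, 9.07, 9.05 and 9.00 at 6 months and 8.92, 9.07, 8.84 and 9.03 at 10 months, values that overlapped. Its shift against the rest of Rxrg was 0.45 ± 0.079 (adjusted p 0.0335 by limma). The test first planned, diffSplice, described below, did not call this Rxrg probe set (adjusted p 0.155). These 2 of the members' probe sets stood beside 0.0668% of 133292 tested in that comparison.

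At 4 against 1 month the same test called 0 member probe sets, against 0.203% of all. The smallest adjusted p was 0.0705, for an Esrrb probe set that rose less than the rest. The test that shares 1 spread among all probe sets of a gene (diffSplice) called the Rorb probe set (adjusted p 1.48e-05) and 1 of Sall3 at 4 against 1 month (-0.65, adjusted p 0.0131), against 0.43% and 0.81% of all probe sets. On data simulated with each probe set's own spread, diffSplice also called many probe sets that had been left unchanged. That spread is the one the added test assumes, so the simulation does not decide between the tests. The diffSplice calls are given here beside the test with each probe set's own spread and are not relied on.

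**Figure D4:**
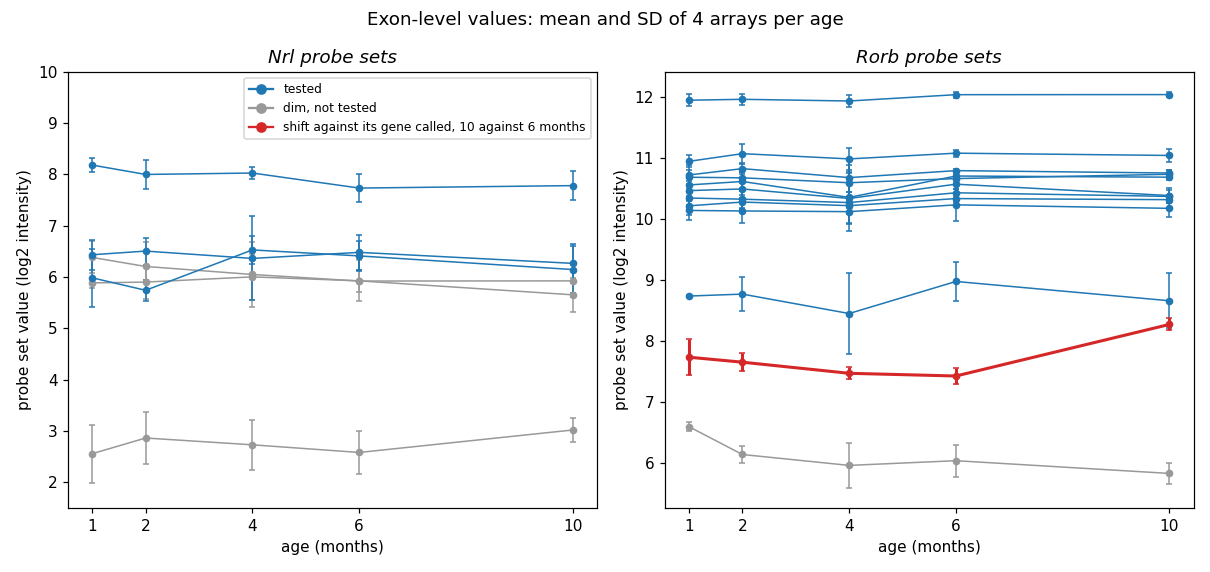
Probe set values (log2 intensity) against age in months for Nrl (left) and Rorb (right), each line 1 probe set with the mean and SD of 4 arrays per age. Nrl probe sets show no called change with age, and the Rorb probe set in red rises at 10 months while the others of the gene do not. Grey lines are dim probe sets that were not tested.

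Other regulators were counted from lists of related genes, beside 15.2% of all genes called at 4 against 1 month (6.9% higher, 8.26% lower) and 20.3% at 10 against 6 months (8.56% higher, 11.7% lower). The median change over all genes tested was 0.013 and 0.027 at these steps. Of 21 tested relatives of the nuclear receptor members 2 were called higher and 1 lower at 4 against 1 month, and again 2 higher and 1 lower at 10 against 6 months, with medians of 0.055 and 0.041. The count is near the share of all genes at the first step. With 21 genes it is not read as different from that share at the second. Nr4a1, an immediate early orphan receptor, was 0.46 log2 units lower at 4 months than at 1 month and rose by 1.07 ± 0.14 from 6 to 10 months (SE, n = 4 against 4, adjusted p 3.27e-05 by limma). Thra, the other thyroid hormone receptor gene, rose by 0.12 ± 0.040 and 0.12 ± 0.040 at the same steps (adjusted p 0.0441 and 0.048 by limma). Esrrg, a relative of Esrrb, fell by 0.23 from 6 to 10 months (adjusted p 0.0181) and was not called at 4 against 1 month, where its change was 0.03.

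Of 32 other tested regulators 7 were called higher and 4 lower at 4 against 1 month. At 10 against 6 months 5 were higher and 1 lower, a count near the share of all genes (medians 0.094 and 0.081 at these steps). The list shares Hes1 with the Muller glia markers and Isl2 with the ganglion cell markers, so it is not limited to photoreceptors. Hes1, counted in both lists, was called higher at both steps (0.44 and 0.30, adjusted p 0.000206 and 0.00268 by limma). Prdm1, which blocks bipolar fate in photoreceptor precursors, fell by 0.41 and by 0.69 at these steps (adjusted p 0.0156 and 0.000196 by limma). Samd7, a polycomb-associated factor that silences other cells' genes in rods, rose by 0.54 ± 0.15 at the first step (adjusted p 0.0178 by limma) and had a change of -0.02 at the second. Mef2c, a MADS-box factor, rose by 0.53 ± 0.067 at the first step (adjusted p 4.29e-05 by limma).

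Of 13 tested coactivators and corepressors 1 was called higher and 2 lower at 4 against 1 month, and 1 higher and 3 lower at 10 against 6 months (medians 0.035 and -0.087). With so few genes, neither these counts nor those of the next list are read against the shares of all genes. Hdac3, a histone deacetylase that works with unliganded receptors, fell by 0.33 ± 0.052 at the first step (adjusted p 0.000331 by limma), and Ncoa3, a receptor coactivator, fell by 0.28 ± 0.063 at the second (adjusted p 0.00345). Of 8 tested genes of thyroid hormone handling 1 was called lower at the first step, the transporter gene Slco1a4 (-0.99 ± 0.20, adjusted p 0.00244 by limma). At the second step 1 was higher, Dio2, which activates thyroid hormone (0.69 ± 0.23, adjusted p 0.0411 by limma), and 1 lower, Slco1c1 (-0.23).

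Among cone genes and genes shared by rods and cones, which these factors are known to serve, every called gene was lower at both steps, beside 8.26% of all genes called lower at 4 against 1 month and 11.7% at 10 against 6 months. Of 17 genes on the cone list 6 were called lower and 0 higher at 4 against 1 month, and 8 lower and 0 higher at 10 against 6 months, with medians of -0.13 and -0.17. That list includes Grk1, Guca1a and Fabp7, the last called lower at both steps (-0.48 and -0.54). Whether its genes are limited to cones was not tested. Cnga3, the cone channel subunit, fell by 0.84 ± 0.073 from 6 to 10 months (adjusted p 6.14e-07 by limma) after a change of -0.02 in the earlier step. Of 21 genes shared by rods and cones 7 and 11 were called lower and 0 higher at these steps, with medians of -0.12 and -0.20. Of 15 tested rod genes 1 was called lower at 4 against 1 month (Pde6b, -0.69), and 3 higher and 4 lower at 10 against 6 months.

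For each member called over the 5 ages, the genes whose levels followed it most closely over the 20 arrays were named by Pearson correlation, as a description. The points share age, so any gene with the same course over age scores high. Rxrg was followed by Adipor1 (r = 0.978), a receptor for adiponectin, by Pdia4 (0.958) and by Ikzf2 (0.957). Esrrb was followed by Hs6st2 (0.961), a heparan sulfate sulfotransferase gene, by Tc2n (0.949) and by Jade2 (0.939). Neurod1 was followed by Lca5 (0.953), a gene of the photoreceptor cilium, by Elovl7 (0.94) and by Rerg (0.939). For Thrb the closest were Gnb5 (0.896), Slc8a3 (0.881) and Mkx (0.871), and for Otx2 they were Lgalsl (0.897), Acbd6 (0.884) and Elovl4 (0.883), which elongates very long fatty acids in photoreceptors.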

How the data were processed

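RNA was extracted from retinas with removal of ribosomal RNA, per the labels' protocols, and hybridised to an exon array. The authors deposited log2 intensity values per probe set, made by RMA, a routine that corrects background and normalizes arrays, per the submitters' processing notes, which name no settings. A single gene symbol was attached to 179496 of 194293 probe sets, and the 1328 with several symbols and the 13469 without one were left out. Symbols were updated through RefSeq, which named 15744 of the 15781 genes, and 37 kept the symbol as given. Probe sets of a gene, 9 at the median, were summarised by median polish, and the lowest 25% of genes by mean were left out. Values were fitted with limma 3.58.1 in R 4.3.3 (lmFit, eBayes), with 1 mean per age over all 20 arrays (15 residual degrees of freedom). Tests were two-sided, and p was adjusted by Benjamini-Hochberg over all genes or all probe sets, with 0.05 as the threshold. The number of arrays limits the precision. Shifts of a probe set against its gene were to be tested with diffSplice. On data simulated with each probe set's own spread, that test called many unchanged probe sets. Limma on each probe set minus the mean of its gene's other tested probe sets called few of them. It was added after the data were seen and leads in the text. The simulation used the spread that the added test assumes, so it does not decide between the tests for these data.

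The members and lists were chosen with earlier results of these data known. All 10 members are named. Of each list, up to 4 genes with the largest change, called genes first, were eligible, and for each member called over the ages the 3 tested genes of highest Pearson correlation are named. Promoter windows came from RefSeq GRCm38.p6 and were searched in Python 3.11.15. Alternatives were another summary, filter, normalization, weighting or eBayes setting, the replicate number as a block, the Y-linked level as a covariate, the 2 ages alone and each array left out in turn. No wild-type array was analysed here.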

Additional observations from a re-analysis of the deposited data

Results flagged for a closer look

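Of 50 age groups (10 genes, 5 ages) 6 had an array far from the other 3 of its age by Dixon's criterion, and chance alone marks about 1 in 20. Nrl stood at 6.53 in replicate 4 of 4 months, above the other arrays of that age. Crx stood at 12.24 in replicate 4 of 1 month and Otx2 at 11.31 in replicate 2 of 1 month, the first below and the second above the rest. Esrrb stood at 8.42 in replicate 4 of 2 months and at 8.58 in replicate 3 of 6 months, both below the other arrays of their age and above every array of 1 month. Sall3 stood at 8.01 in replicate 3 of 6 months, below the others.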

How the results depend on the processing

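No result changed direction and was called in the other direction under any alternative run. The count of members called at 2 against 1 month was 1 rather than 2 with the Y-linked level in the fit, and 3 with array weights, which added Neurod1 (-0.19, adjusted p 0.0281 by limma). At 4 against 1 month it was 2 rather than 4 with the brightest probe set, and 2 to 4 when 1 array was left out (2 when the left-out array was 1 month replicate 1 or 4 months replicate 2). At 10 against 6 months it was 1 rather than 4 with the brightest probe set, the Y-linked level in the fit, the 2 ages alone or the pigment epithelium level as a covariate, and 2 to 4 with 1 array left out. Member probe sets that diffSplice called numbered 0 to 1 at 4 against 1 month and 1 to 2 at 10 against 6 months with 1 array left out. The later count was 0 with the lowest 50% left out, and with each probe set's own spread the 2 counts were 0 and 2. Correlations of deviations within a replicate number ran from -0.574 to 0.563, with means by number from -0.0919 to -0.0215. So wide a range cannot decide whether arrays of the same number were handled together. With the replicate block 5, 3 and 3 members were called over the ages, at 4 against 1 month and at 10 against 6 months. Otx2 lost its call in the last 2. Over all genes, the brightest probe set gave 2416 rather than 4544 calls over the ages, 344 rather than 1008, 840 rather than 1795, 953 rather than 1942 at 2, 4 and 6 against 1 month, and 988 rather than 2400 at 10 against 6 months. Leaving out 1 array gave 535 to 653 at 2 against 1 month for 4 of the arrays. Array weights gave 2372, 3022 and 2965 at 2, 4 and 6 against 1 month. The Y-linked covariate left 125 calls at 2 against 1 month, the 2 ages alone 1049 at 4 against 1 month, and the pigment epithelium covariate 1278 at 10 against 6 months. At 4 against 2 months all-gene counts ran from 1 to 111, against 15. With 4 animals per age, small changes such as those of Otx2 lie near the limit of the test, and a gene not called is not shown to be unchanged.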
